A study of Homo sapiens with 11 samples.

Results

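The genes described here are the protein-coding genes whose symbol begins with MRPL or MRPS followed by a digit, that is, the genes named for proteins of the mitochondrial ribosome. The rule found 78 of the 60676 genes in the count table, 49 named MRPL for the large subunit and 29 named MRPS for the small subunit, and the rule itself uses no measured value. RNA was sequenced from RWPE1 cells, an immortalized and non-tumorigenic line of prostate epithelial cells, kept in normoxia (3 libraries) or moved to 1% oxygen for 6 h (3 libraries), 12 h (3 libraries) or 24 h (2 libraries). The third 24 h library of the triplicates was not analysed here. All libraries came from this 1 line, with no genetic change and no drug. The hypoxic cultures also received 10 mM HEPES, so that low oxygen and the added buffer cannot be told apart. The question of each comparison was how these genes changed as cells spent longer in hypoxia.

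Mitochondria carry their own ribosome, which translates the few mRNAs encoded by mitochondrial DNA, all of them for membrane subunits of the respiratory chain and the ATP synthase. Its RNAs are transcribed from mitochondrial DNA, whereas every one of its proteins is encoded in the nucleus, made by cytosolic ribosomes and imported. Some of these proteins descend from bacterial ribosomal proteins and others are found only in mitochondria. By the number in their symbol, 42 members were sorted as having a bacterial homolog and 35 as specific to mitochondria. MRPS18A and MRPS18B were placed with the latter whatever their number, and MRPS36 with neither. Homology was not checked protein by protein, so single members may be misplaced. MRPS36 carries the name but is known as a subunit of the 2-oxoglutarate dehydrogenase complex.

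The libraries held 27496009 to 49488345 counted reads. The basal epithelial keratin KRT5 stood at 6077 CPM or more (counts per 1000000 reads, with library sizes scaled by the trimmed mean of M values, TMM) in every library, KLK3 at 0, and the leukocyte and endothelial marker lists at sums under 0.51 CPM. Other markers varied. The basal genes TP63 and KRT15 stood at 218 to 259 and 250 to 341 CPM in normoxia and were lower in every hypoxic library, while KRT14 and ITGA6 were higher in each. The luminal keratins KRT8 and KRT18 stood at 133 to 149 and 93.9 to 108 CPM in normoxia and were higher in every hypoxic library. The fibroblast gene COL1A1 stood at 27.7 to 60.5 CPM. All 8 genes of a list of known hypoxia targets, among them CA9, were called higher at each of the 3 times. The second 24 h library stood apart from all the others. Its TMM factor was 0.539 against 0.851 in the first 24 h library and 1.29 to 1.32 in normoxia, its 100 most counted genes took 46.4% of its reads, and transcripts of mitochondrial DNA took 0.369% of them against 1.74% in the first 24 h library. Counts and medians at 24 h are therefore also given without it for the members and the related gene lists, and so are the changes of most genes named. Promoter, neighbour and length values at 24 h are from all libraries where nothing else is said. The labels do not say that replicates were separate cultures, so the p-values measure the spread between these samples. In RNA from whole cultures, fewer cells of one kind and less RNA per cell cannot be told apart.

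Together the members took a small share of the reads, and the size of their rise depended on how libraries were scaled. Their summed count was 0.237% to 0.249% of all reads in normoxia and 0.230% to 0.249% at 6 and 12 h. It was 0.272% and 0.303% in the 2 libraries at 24 h, both above every other library. With TMM scaling, the summed level was 1895, 1792 and 1888 CPM in normoxia, 2332, 2233 and 2209 CPM at 6 h, 2735, 2515 and 2552 CPM at 12 h, and 3204 and 5632 CPM at 24 h. On that scale no time point overlapped another. Without the scaling, normoxia, 6 h and 12 h overlapped, since the sums were 2370 to 2491, 2299 to 2444 and 2386 to 2494 CPM of unscaled reads.

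**Figure D1:**
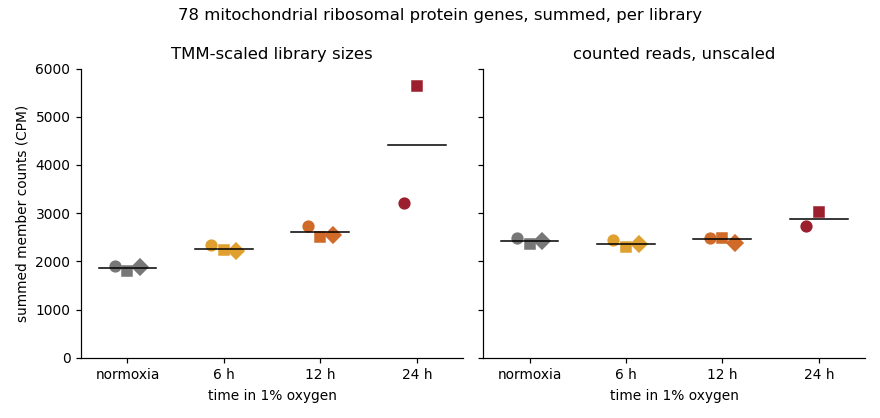
Summed level of the 78 genes in each of the 11 libraries (y axis, CPM), by time in 1% oxygen (x axis); circles, squares and diamonds are replicates 1, 2 and 3 and black lines are means. With TMM-scaled library sizes (left) the sum went from 1895, 1792 and 1888 CPM in normoxia to 3204 and 5632 CPM at 24 h, and with counted reads unscaled (right) the 24 h libraries stood at 2723 and 3034 CPM.

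Levels in normoxia varied widely between members. Per kb of the canonical transcript, the 77 members with enough reads had a median normoxic level of 16.9 CPM per kb, and 45 of them lay between 10 and 30 CPM per kb. The highest levels belonged to MRPL41 with 54.5, MRPS18B with 48.2 and MRPL37 with 45.7 CPM per kb. The lowest belonged to MRPS24 with 0.348, MRPS17 with 1.55 and MRPL46 with 2.04 CPM per kb. MRPL53 had 0 counts in all 11 libraries, where a count of 0 allows up to 3 counts in a library. Of its annotated exonic bases, 79.4% also lie in a gene on the other strand and 72.8% in a gene on its own strand.

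At 6 h of hypoxia the members split. At an adjusted p under 0.05 (Benjamini-Hochberg, over the 19981 genes tested), the quasi-likelihood test of edgeR called 24 of the 77 tested members higher and 10 lower, and 43 did not pass. Those shares were 31.2% and 13%, where the background was 25.1% of all tested genes called higher and 27.7% called lower. The median member changed by 0.19 on the log2 scale against -0.0021 over all tested genes. At 12 h the test called 31 members higher and 4 lower, or 40.3% and 5.19%, against 24.2% and 27.1% of all tested genes, with a median of 0.40 against -0.03. At 24 h it called 61 higher and 1 lower, or 79.2% and 1.3%, against 29.9% and 31.3% of all tested genes, with a median of 1.20 against -0.06. Without the second 24 h library it called 49 higher and 5 lower with a median of 0.66, where 26.5% and 29.1% of all tested genes were called in that fit. Changes below 0 there included MRPL2 at -0.92, MRPL15 at -0.53, MRPL46 at -2.75 (from few reads), MRPS10 at -0.37 and MRPS16 at -0.44. Each rests on the first 24 h library alone. The 3 comparisons share the normoxic libraries.

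Scaling moved these counts. With library size alone as the scale, the median of all tested genes itself shifted to -0.32 at 6 h, -0.50 at 12 h and -0.97 at 24 h. On that scale 11 members were called higher and 19 lower at 6 h, 14 and 18 at 12 h, and 28 and 16 at 24 h. Of all tested genes 13.6% were called higher and 35.7% lower at 6 h on that scale, 10.6% and 42.3% at 12 h, and 11.1% and 56.6% at 24 h, so that the members' share called higher at 6 h was near the background. The member medians were -0.13, -0.075 and 0.16, above the median of all tested genes at each time. Any direction below is relative to the TMM scale.

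**Figure D2:**
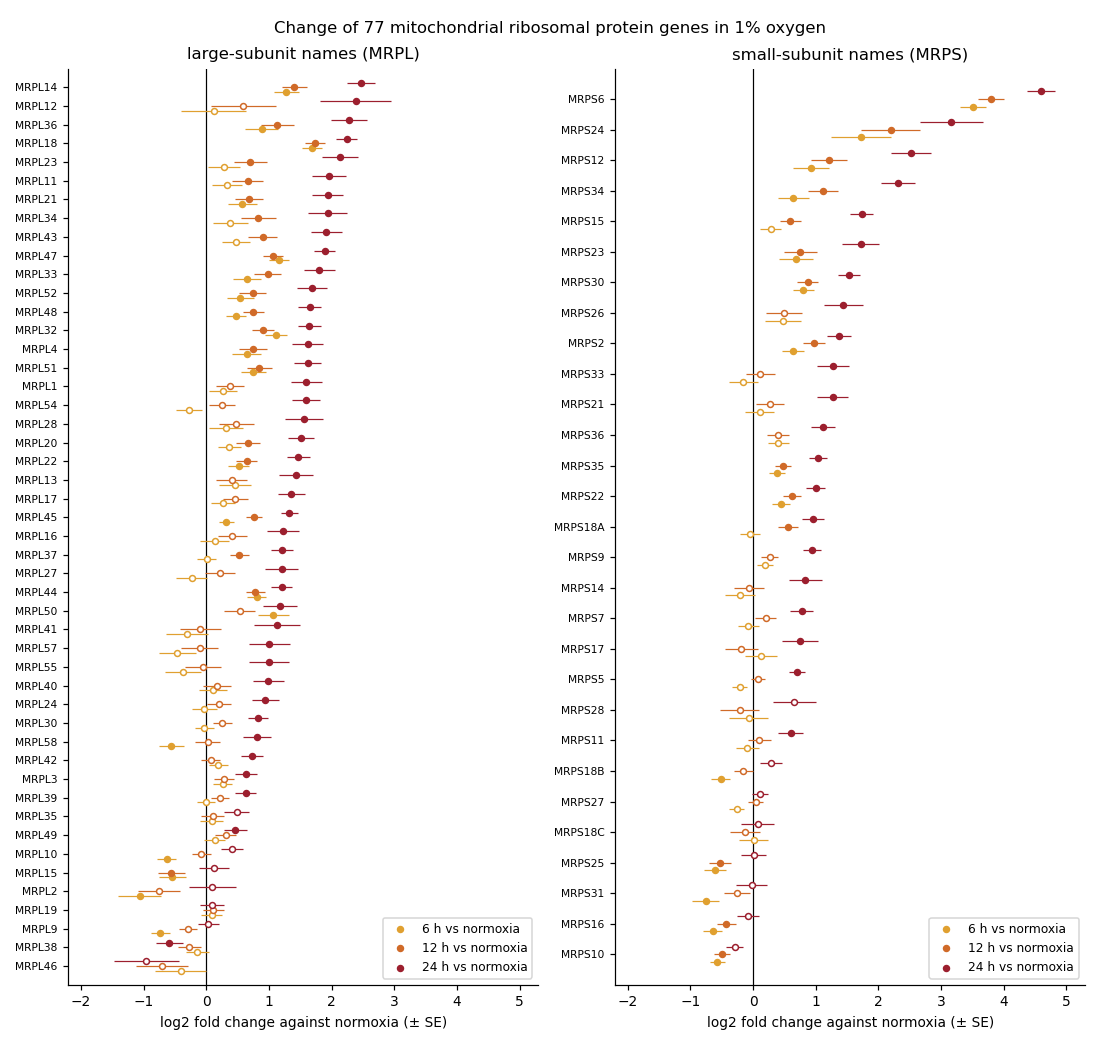
Log2 fold change against normoxia (x axis, points, with lines of 1 SE either side) for the 48 tested MRPL genes (left) and the 29 MRPS genes (right), ordered by the value at 24 h; filled points passed the adjusted threshold and open points did not. MRPS6 lies at 3.52, 3.79 and 4.59, MRPL46 and MRPL38 lie lowest on the left at 24 h, and most members lie furthest right at 24 h.

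With all libraries, most calls of members between hypoxic times came from comparisons with 24 h. From 6 to 12 h 1 member, MRPS18A, was called higher and 0 lower, against 1.88% of all tested genes called higher, and the median was 0.20. At an unadjusted p under 0.05 the same test passed 12 of the 77 members, where 21.2% of all tested genes passed. DESeq2 called 6 members at its adjusted threshold, where it called 3.7% of all tested genes higher and 5.9% lower. From 12 to 24 h, 52 of the 77 were called higher and 0 lower, against 15.1% of all tested genes called higher, with a median of 0.80. From 6 to 24 h, 65 were called higher and 0 lower, against 22.1%, with a median of 0.97. The second 24 h library carried much of this. Without it, the calls were 13 higher and 1 lower from 12 to 24 h with a median of 0.23 (7.63% of all tested genes were called higher in that fit), and 39 higher and 1 lower from 6 to 24 h with a median of 0.44 (17.0% and 17.2% of all tested genes). MRPL46 fell in both, from few reads in the first 24 h library alone. The median of 0.23 from 12 to 24 h was then near the 0.20 from 6 to 12 h with all libraries. The median from 6 to 12 h ranged from 0.16 to 0.24 over the fits that left out 1 library. Leaving out the second or the third 12 h library left 25 calls from 12 to 24 h, where 7.48% and 7.95% of all tested genes were called higher. A fit to the libraries of those times alone called 0 of the 17807 genes it tested in either direction, members included, and 48 members and 31.8% of all tested genes had an unadjusted p under 0.05.

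Most members of both subunits were called higher at 24 h. At 24 h, 40 of 48 tested MRPL genes were called higher and 1 lower with a median of 1.28, and 21 of 29 MRPS genes were called higher and 0 lower with a median of 0.96. Without the second 24 h library the counts were 31 higher and 3 lower with a median of 0.62 for MRPL genes, and 18 and 2 with 0.69 for MRPS genes. At 6 h the medians were 0.26 for MRPL and 0.10 for MRPS genes, and at 12 h 0.44 and 0.26. Members sorted as having a bacterial homolog had a median of 1.31 at 24 h, with 33 of 42 called higher. Those sorted as mitochondria-specific had 1.08, with 27 of 34 called higher. Without that library the medians were 0.62 and 0.64, with 28 and 20 called higher. These differences between subgroups were not tested.

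MRPS6, a small-subunit protein with a bacterial homolog, rose most. Its gene lies at chr21:34073224-34143034 on the forward strand. It stood at 8.27, 9.06 and 7.79 CPM in normoxia, 107, 104 and 77 CPM at 6 h, 108, 133 and 108 CPM at 12 h, and 156 and 248 CPM at 24 h. Every hypoxic library lay far above every normoxic one. The log2 fold changes were 3.52 ± 0.21 (SE), 3.79 ± 0.21 and 4.59 ± 0.23, with adjusted p of 3.9e-07, 5.1e-07 and 1.8e-07 in edgeR's test. The last change was 4.20 without the second 24 h library. SLC5A3, the osmotically regulated myo-inositol transporter, is annotated inside the same locus, and 9.5% of the exonic bases of MRPS6 overlap genes on its own strand. SLC5A3 stood at 20.9 to 23.2 CPM in normoxia, 348 to 836 CPM at 6 h, 345 to 758 CPM at 12 h, and 229 and 245 CPM at 24 h. From 6 to 24 h SLC5A3 was thus lower in every library while MRPS6 was higher in every library. The part of reads from SLC5A3 in the MRPS6 count was not tested.

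MRPL18 and MRPL14 were also higher in every hypoxic library. MRPL18, a protein of the central protuberance of the large subunit, stood at 26.5, 25.1 and 28.4 CPM in normoxia, 82.1, 82.2 and 92.2 CPM at 6 h, 104, 77.7 and 83.6 CPM at 12 h, and 106 and 146 CPM at 24 h. Its libraries of 6 and 12 h overlapped. The log2 fold changes were 1.68 ± 0.16, 1.73 ± 0.16 and 2.24 ± 0.17, the last 1.97 without the second 24 h library. Its gene starts 109 bases from that of TCP1, a subunit of the cytosolic chaperonin, on the opposite strand, and TCP1 changed by 1.36, 1.62 and 2.24. MRPL14, which lies at the interface between the subunits, stood at 18.6, 20.0 and 19.2 CPM in normoxia, 46.7, 52.3 and 41.0 CPM at 6 h, 48.5, 52.5 and 52.0 CPM at 12 h, and 72.0 and 141 CPM at 24 h. Again no hypoxic library fell to the normoxic range. Its log2 fold changes were 1.28 ± 0.20, 1.41 ± 0.20 and 2.47 ± 0.22, the last 1.88 without that library. All 6 changes of these 2 genes passed edgeR's test, with adjusted p of 0.00023 or less.

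MRPS24 was called higher at each time from very few reads. It held 15, 5 and 9 counts in normoxia, 22, 36 and 26 at 6 h, 41, 41 and 31 at 12 h, and 67 and 25 at 24 h, so that its log2 fold changes of 1.72 ± 0.48, 2.19 ± 0.47 and 3.17 ± 0.50 rest on small numbers. The last of them was 3.57 without the second 24 h library. A read-through gene, URGCP-MRPS24, covers 23.2% of its exonic bases on the same strand. MRPS12, the protein of the decoding centre, had more reads. It stood at 17.1, 15.9 and 17.0 CPM in normoxia, 29.7, 35.3 and 29.9 CPM at 6 h, 42.0, 37.8 and 36.6 CPM at 12 h, and 47.5 and 144 CPM at 24 h. Its hypoxic libraries lay above the normoxic ones, and the second 24 h library lay far above the first. The log2 fold changes were 0.92 ± 0.29, 1.22 ± 0.29 and 2.52 ± 0.32, and the last was 1.49 without that library. The call at 6 h was lost on leaving out the second normoxic or the second 6 h library, with values of 0.84 to 0.97 over all such fits. SARS2, the mitochondrial seryl-tRNA synthetase, starts 181 bases away on the opposite strand. It was called lower at 6 h, with a log2 fold change of -1.61, and its changes of -0.85 and -0.39 at 12 and 24 h did not pass.

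Genes for proteins around the polypeptide exit tunnel were higher at 24 h, with 7 of 7 listed genes called higher and a median of 1.35. Among all tested members 79.2% were called higher with a median of 1.20, against 29.9% of all tested genes. Of 6 listed genes for the central protuberance, 4 were called higher and 1 lower, with a median of 1.0966. These lists were not tested against each other. Without the second 24 h library the medians were 1.04 for the exit tunnel, 0.66 for all members and 0.4035 for the central protuberance. MRPL44, which carries an RNase III fold, stood at 16.4, 14.4 and 16.3 CPM in normoxia, 30.5, 26.6 and 25.3 CPM at 6 h, 24.7, 30.2 and 26.0 CPM at 12 h, and 31.0 and 41.4 CPM at 24 h. Its log2 fold changes were 0.81 ± 0.15, 0.78 ± 0.15 and 1.20 ± 0.17, the last 0.96 without that library. MRPL47 stood at 24.0, 22.4 and 23.5 CPM in normoxia, 59.4, 48.2 and 48.4 CPM at 6 h, 53.9, 44.6 and 47.7 CPM at 12 h, and 71.8 and 101 CPM at 24 h. Both genes were well above normoxia in every hypoxic library. MRPL47 changed by 1.16 ± 0.15, 1.06 ± 0.15 and 1.89 ± 0.17, the last 1.60 without it. MRPL45, which holds the ribosome to the inner membrane, rose later, from 44.1 to 44.6 CPM in normoxia to 53.9 to 57.2 at 6 h, 69.4 to 83.9 at 12 h, and 105 and 117 at 24 h. Its 4 groups did not overlap. The changes of MRPL45 were 0.32 ± 0.12, 0.76 ± 0.12 and 1.33 ± 0.13, and the first was lost in 8 of the 11 fits that left out 1 library, with an adjusted p of up to 0.12, while the 24 h value was 1.23 without the second 24 h library. MRPL23 changed little at 6 h and by 2.14 ± 0.29 at 24 h, or 1.26 without the second 24 h library.

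The stalk, which recruits translation factors, gave mixed values. MRPL11 at its base stood at 16.8 to 20.8 CPM in normoxia, 22.7 to 25.6 at 6 h, 27.1 to 33.3 at 12 h, and 43.6 and 104 at 24 h. It changed by 0.33 ± 0.24 at 6 h, which did not pass, and by 0.66 ± 0.24 and 1.96 ± 0.27 later. The 12 h call was lost in 7 of the 11 fits that left out 1 library, and the 24 h value was 1.19 without the second 24 h library. MRPL10 was called lower at 6 h, from 36.2, 37.5 and 37.9 CPM in normoxia to 26.3, 23.2 and 22.5 CPM, a log2 fold change of -0.63 ± 0.15. It then stood at 34.0, 36.6 and 35.1 CPM at 12 h and at 39.1 and 59.8 CPM at 24 h, and neither time passed against normoxia. MRPL12, which MRPL10 carries, stood at 4.88 to 6.19 CPM in normoxia, 4.31 to 8.65 CPM at 6 and 12 h, and 5.78 and 50.8 CPM at 24 h. Its 1 high value was that of the second 24 h library. Its log2 fold change of 2.38 ± 0.56 at 24 h therefore became 0.08 without that library, and a read-through gene on the same strand covers 69.5% of its exonic bases.

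**Figure D3:**
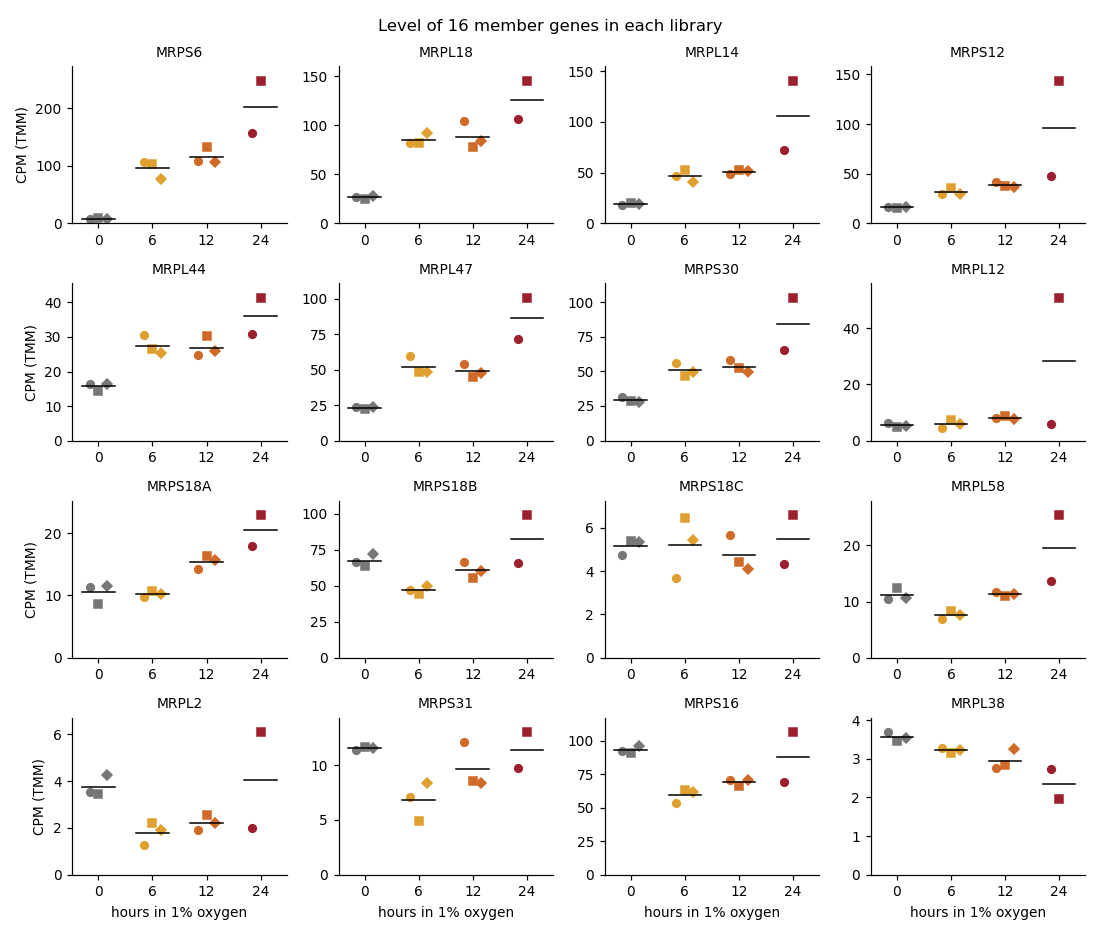
Level of 16 members (y axis, TMM-scaled CPM, each panel on its own scale from 0) in each library by hours in 1% oxygen (x axis); circles, squares and diamonds are replicates 1, 2 and 3 and black lines are means. MRPS6 and MRPL18 stood above normoxia in every hypoxic library, MRPL12 was high in 1 library at 24 h, and MRPL2, MRPS31 and MRPS16 were lowest at 6 h.

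The 10 members called lower at 6 h were spread over both subunits. MRPL2, a core protein of the peptidyl transferase region, fell most. It stood at 3.54, 3.44 and 4.28 CPM in normoxia, 1.26, 2.21 and 1.90 CPM at 6 h, 1.93, 2.55 and 2.22 CPM at 12 h, and 2.01 and 6.10 CPM at 24 h. All 6 h and 12 h libraries lay below normoxia, while the 24 h libraries lay on either side. The 6 h change of -1.06 ± 0.34 was lost without the third normoxic library, at -0.97, and without the first 6 h library, at -0.87. MRPS31 stood at 11.4 to 11.6 CPM in normoxia, 4.93 to 8.40 at 6 h, 8.34 to 12.1 at 12 h, and 9.71 and 13 at 24 h, with a change of -0.76 ± 0.22 at 6 h. MRPL9 stood at 16.2 to 18 CPM in normoxia and 8.98 to 11.2 at 6 h, a change of -0.73 ± 0.15, and at 16.9 and 18.5 CPM at 24 h. MRPS16, another small-subunit protein with a bacterial homolog, stood at 92.1, 90.8 and 96.0 CPM in normoxia, 53.6, 63.2 and 61.8 CPM at 6 h, 70.8, 66.0 and 70.9 CPM at 12 h, and 69.2 and 106 CPM at 24 h. Its changes were -0.64 ± 0.15 at 6 h and -0.42 ± 0.15 at 12 h, and the later call was lost in 6 of the 11 fits that left out 1 library. None of these 4 genes passed against normoxia at 24 h with all libraries. Without the second 24 h library MRPL2 was called lower at -0.92 (edgeR adjusted p = 0.0314) and MRPS16 at -0.44 (0.0146), while MRPS31 at -0.27 and MRPL9 at -0.05 did not pass.

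Of the 4 members called lower at 12 h, MRPS16 is described above. MRPS10, from 52.4 to 57.0 CPM in normoxia to 37.9 to 39.7 CPM at 12 h, changed by -0.57 ± 0.12 at 6 h and -0.49 ± 0.12 at 12 h, and kept both calls whichever library was left out. It was also called lower at 24 h, at -0.37, without the second 24 h library. MRPS25 changed by -0.52 ± 0.18 at 12 h, a call lost in 5 of those fits, and MRPL15 by -0.56 ± 0.21, lost in 9 of them. MRPL15 was called lower at 24 h without the second 24 h library, at -0.53. With all libraries the 1 member called lower at 24 h was MRPL38, a mitochondria-specific protein of the central protuberance. It stood at 3.70, 3.47 and 3.53 CPM in normoxia, 3.28, 3.15 and 3.24 CPM at 6 h, 2.77, 2.84 and 3.24 CPM at 12 h, and 2.74 and 1.96 CPM at 24 h. Its 24 h libraries lay below all normoxic ones. The change of -0.59 ± 0.22 (edgeR adjusted p = 0.032) was -0.40 without the second 24 h library, and the call was lost in 4 of the 11 fits that left out 1 library.

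MRPL58, a peptidyl-tRNA hydrolase of the release factor family built into the large subunit, was the 1 member called in opposite directions at different times. It stood at 10.5, 12.4 and 10.6 CPM in normoxia, 6.83, 8.24 and 7.68 CPM at 6 h, 11.8, 10.9 and 11.3 CPM at 12 h, and 13.6 and 25.5 CPM at 24 h. Its 6 h libraries were below and its 24 h libraries above all normoxic ones. The changes were -0.56 ± 0.20 at 6 h, 0.02 ± 0.20 at 12 h and 0.81 ± 0.22 at 24 h. The direct comparison of 24 h with 6 h gave 1.36 ± 0.22, with an edgeR adjusted p of 0.00059, and 0.84 without the second 24 h library. The 6 h call was lost in 7 of the 11 fits that left out 1 library, and the 24 h value was 0.27 without the second 24 h library and no longer passed.

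The 3 MRPS18 paralogs, whose proteins occupy different places in the ribosome, gave different values. MRPS18A, which sits in the large subunit despite its name, stood at 11.3, 8.66 and 11.6 CPM in normoxia, 9.67, 10.6 and 10.2 CPM at 6 h, 14.2, 16.4 and 15.7 CPM at 12 h, and 17.9 and 22.9 CPM at 24 h. It thus began to rise after 6 h. Its changes were -0.05 ± 0.16, 0.55 ± 0.16 and 0.96 ± 0.18, and the later 2 passed, the last at 0.75 without the second 24 h library. The 12 h call against normoxia was lost in 2 of the 11 fits that left out 1 library and that from 6 to 12 h in 9 of them. MRPS18B was called lower at 6 h at -0.52 ± 0.16, from 63.8 to 71.9 CPM in normoxia to 44.4 to 49.6 CPM, and stood at -0.15 ± 0.15 and 0.29 ± 0.17 later. MRPS18C, at 3.69 to 6.59 CPM throughout, changed by 0.01 ± 0.23, -0.13 ± 0.24 and 0.08 ± 0.27 and passed at no time, with overlapping groups. Genes on the other strand cover 50.9% of the exonic bases of MRPS18A and 40.2% of those of MRPS18C, and whether reads were counted by strand is not given in the sources used here.

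MRPS30 and MRPS36 carry names that mislead. MRPS30, a protein of the large subunit, stood at 31.1, 28.5 and 27.6 CPM in normoxia, 56.0, 47.0 and 49.4 CPM at 6 h, 58.5, 52.3 and 49.3 CPM at 12 h, and 65.1 and 103 CPM at 24 h. It changed by 0.81 ± 0.17, 0.88 ± 0.17 and 1.53 ± 0.18 and passed at every time, the last at 1.14 without the second 24 h library. MRPS36, of the 2-oxoglutarate dehydrogenase complex, changed by 0.40 ± 0.17 at both 6 h and 12 h, which did not pass, and by 1.12 ± 0.19 at 24 h, or 0.72 without the second 24 h library. MRPS5, near the mRNA entry site, rose late, from 54.6 to 56.9 CPM in normoxia to 91.5 and 90.5 CPM at 24 h. The 24 h change of MRPS5 was 0.71 ± 0.13, or 0.69 without the second 24 h library.

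The most and least expressed members took no single course. MRPL41, highest in normoxia, stood at 33.0, 31.8 and 30.4 CPM there and at 30.9 and 108 CPM at 24 h, so its change of 1.12 ± 0.37 became -0.06 without the second 24 h library. MRPL37 changed by 0.01 ± 0.15, 0.53 ± 0.16 and 1.21 ± 0.17, the last 0.97 without that library. MRPS27, a pentatricopeptide repeat protein of the small subunit, stood at 102 to 104 CPM in normoxia, 80.0 to 93.6 at 6 h, 105 to 108 at 12 h, and 109 and 115 at 24 h, and passed at no time against normoxia. MRPS17 changed by 0.75 ± 0.28 at 24 h and by 0.11 without the second 24 h library. MRPL46, of the central protuberance, was at 1.88 to 2.27 CPM in normoxia and at 0.30 and 1.85 CPM at 24 h. Its change of -0.96 ± 0.52 did not pass. Without the second 24 h library it was -2.75, which rests on few reads, at 0.30 CPM, in the first 24 h library alone.

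From 12 to 24 h the largest calls with all libraries were MRPL12 at 1.79, MRPL23 at 1.44 and MRPL54 at 1.34. MRPL12 was at -0.51 without the second 24 h library, did not pass, and lost its call in 4 of the 11 fits that left out 1 library, and MRPL23 was at 0.56 without that library. MRPL54 stood at 13.5 to 15.2 CPM at 12 h and at 25 and 48.4 CPM at 24 h, a change of 1.34 ± 0.23, or 0.77 without the second 24 h library. The smallest calls were MRPL10 at 0.49 ± 0.17, MRPL18 at 0.51 ± 0.17 and MRPS35 at 0.56 ± 0.14, and without that library MRPL10 was at 0.14, MRPL18 at 0.25 and MRPS35 at 0.49. The call of MRPL10 was lost in 10 of the 11 fits that left out 1 library, that of MRPL18 in 8 and that of MRPS35 in 2. From 6 to 24 h the smallest calls were MRPS27 at 0.38 ± 0.13, MRPL32 at 0.53 ± 0.19 and MRPL42 at 0.54 ± 0.17. Without the second 24 h library these were 0.33, 0.28 and 0.28, and none of the 3 then passed. The calls were lost in 7, 7 and 3 of the 11 fits that left out 1 library.

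Promoters of the members share sequence features that the choice by name did not use. RefSeq promoter windows on GRCh38.p14, from 250 bases before to 50 bases after the annotated start, were matched by symbol for 69 of the 78 members, and 5 motifs were searched in them on both strands. The core letters CCGGAAG, which ETS factors such as the GABP complex bind, were found in 29 member promoters (42.0%), against 10.7% of the 27305 promoters in the table and 18% of those of tested genes. Between 50 bases before and 10 bases after the start, 34.8% of member promoters held a match, against 5.2% of all promoters. The share among tested genes was not computed for this narrower window. Upstream stretches of 150 bases are shown for MRPS18A, which rose at 24 h, and for MRPS10 and MRPS31, which fell at 6 h, because members of unlike course hold the same letters at a like place. Capitals mark the ETS core and, in MRPS31, also a hypoxia response core.
MRPS18A, chr6:43687792-43687941, reverse strand: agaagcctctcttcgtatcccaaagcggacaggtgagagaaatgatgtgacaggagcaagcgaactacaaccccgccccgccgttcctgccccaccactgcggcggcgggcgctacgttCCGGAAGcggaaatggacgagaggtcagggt
MRPS10, chr6:42217862-42218011, reverse strand: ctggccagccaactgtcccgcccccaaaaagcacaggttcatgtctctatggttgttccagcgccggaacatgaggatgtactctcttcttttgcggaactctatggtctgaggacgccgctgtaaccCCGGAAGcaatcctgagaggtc
MRPS31, chr13:40771191-40771340, reverse strand: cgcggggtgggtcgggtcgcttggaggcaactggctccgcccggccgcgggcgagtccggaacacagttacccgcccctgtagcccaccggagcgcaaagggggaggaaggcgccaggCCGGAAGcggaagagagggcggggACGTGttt

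The letters AAGATGGC, which are part of the site of the factor YY1, were found in 20 member promoters (29.0%), against 3.03% of all promoters and 5.02% of those of tested genes. Of the 21 matches, 15 lay after the start, between bases 7 and 36 of the transcript, and all 15 read AAGATGGC on the strand of the gene. In 12 of these 15 the ATG inside the letters is an annotated start codon in GENCODE release 44. Such a match after the start was present in 21.7% of member promoters, 1.39% of all promoters and 2.8% of those of tested genes. The first 30 bases of the transcript, with the match in capitals, are shown for 7 members that took different courses. MRPS30, MRPL45, MRPS24, MRPS18A and MRPL42 were called higher at 24 h, MRPS10 was called lower at 6 and 12 h, and MRPS27 was not called against normoxia. MRPL38, called lower at 24 h, holds the same letters at base 7.
MRPS30, chr5:44808947-44808976, forward strand: ggaatcgcgggcaAAGATGGCggcggccag
MRPL45, chr17:38297168-38297197, forward strand: cctttgcgggaacAAGATGGCagcccccat
MRPS24, chr7:43869488-43869517, reverse strand: cccgcgctccgcttggcccAAGATGGCggc
MRPS27, chr5:72320211-72320240, reverse strand: ccttttggtacgctccAAGATGGCtgcctc
MRPS18A, chr6:43687762-43687791, reverse strand: aggtttttgAAGATGGCggccctcaaggct
MRPS10, chr6:42217832-42217861, reverse strand: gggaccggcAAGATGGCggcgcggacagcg
MRPL42, chr12:93467514-93467543, forward strand: attgaaacAAGATGGCgggttcgtggtgag

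The other motifs were closer to the background. GCGCATGC, the core of the site of nuclear respiratory factor NRF1, was found in 6 member promoters (8.7%), against 3.27% of all promoters and 5.22% of those of tested genes. The E-box CACGTG was in 6 (8.7%), against 7.43% and 9.92%. The hypoxia response cores ACGTG or GCGTG, the first of which is also part of the E-box, were in 46 (66.7%), against 48.4% and 62.2%. Tested members with a hypoxia response core had a median change of 1.33 at 24 h (n = 45), and those without 0.84 (n = 23), while over all tested genes with a promoter the medians were -0.04 (n = 7527) and -0.19 (n = 4574). Members with an ETS core had a median of 1.27 and those without 1.15. A match says only that the letters are present, and these differences were not tested.

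**Figure D4:**
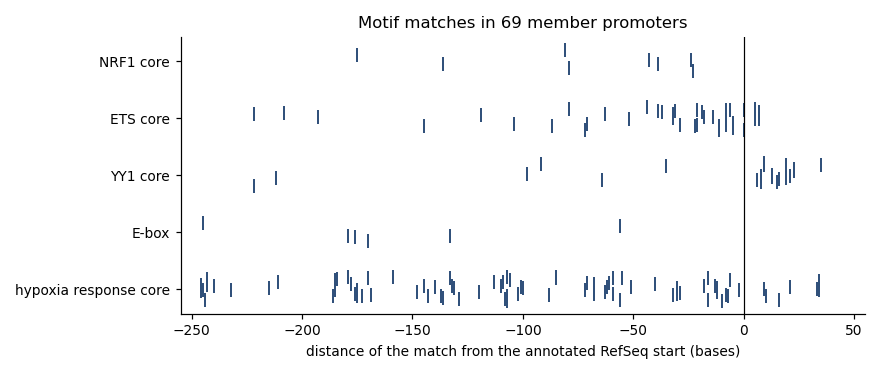
Position of each motif match (ticks) in the 69 member promoters, by distance from the annotated RefSeq start (x axis, bases; 0 is the first base of the transcript), 1 row per motif. Matches of the YY1 core gather just after the start, those of the ETS core lie mostly close before it, and those of the hypoxia response cores are spread over the window.

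Many members share a start region with a neighbour. Within 1000 bases, 17 of the 78 members (21.8%) have a protein-coding gene that starts on the opposite strand and runs away from them, against 10.8% of 13802 tested protein-coding genes. MRPL46 and MRPS11 are each other's neighbour at 63 bases. At 24 h MRPL46 stood at -0.96, which did not pass, and MRPS11 was called higher at 0.60. These values were -2.75, from few reads, and 0.24 without the second 24 h library. MRPL36 and NDUFS6, a subunit of complex I, start 41 bases apart and changed by 2.28 and 2.12 at 24 h, or 1.36 and 1.19 without that library. MRPL47 and NDUFB5, another subunit of complex I, changed by 1.89 and 1.19. MRPL27 and EME1, a DNA repair endonuclease subunit, start 13 bases apart and changed by 1.20 and -2.35, both called, or 0.43 and -2.18 without that library. Of the 16 members whose neighbour was also tested, 5 were called in the same direction as the neighbour at 24 h and 1, MRPL27, in the opposite direction, and in the other pairs at least 1 gene was not called. The pair of MRPL46 and MRPS11 enters these 16 once from each side. At 24 h 79.2% of tested members and 29.9% of all tested genes were called higher. How many pairs would match without any link was not computed.

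Set beside related gene lists, the members had a lower median at 24 h than the genes for cytosolic ribosomal proteins and respiratory chain subunits and a higher one than the assembly factors. Of 86 tested cytosolic ribosomal protein genes, 16, 79 and 83 were called higher at 6, 12 and 24 h and 0 lower, with medians of 0.52, 1.07 and 2.55. Those shares were 18.6%, 91.9% and 96.5%, the first of them below the 25.1% of all tested genes called higher at 6 h. At 24 h 80 were called higher, with a median of 1.78, without the second 24 h library. Their share of all reads went from 6.78% to 6.97% in normoxia to 15.8% and 25.3% at 24 h. Of 78 tested nuclear genes for respiratory chain subunits, 28, 44 and 69 were called higher and 5, 5 and 2 lower, with medians of 0.44, 0.57 and 1.59. Those called higher were 35.9%, 56.4% and 88.5% of the list, and without that library 58 were called higher and 3 lower with a median of 0.99. These medians were not tested against each other.

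Of the 5 mitochondrial ribosomal proteins with other names, 4 were called higher at 24 h and 0 lower, with a median of 1.73, and all 5 with a median of 0.89 without the second 24 h library. DAP3, which binds GTP in the small subunit, stood at 59.4 to 64.3 CPM in normoxia and at 116 and 124 CPM at 24 h, a change of 0.95 ± 0.13, or 0.88 without that library. GADD45GIP1, also called CRIF1, changed by 2.46 ± 0.32, or 1.44 without it. PTCD3 changed by 0.38 ± 0.16, which did not pass, and by 0.51 without it, which did. Of 27 factors that assemble the ribosome, 2, 4 and 9 were called higher and 8, 6 and 3 lower at 6, 12 and 24 h, with medians of -0.25, -0.13 and 0.14. The 29.6% called lower at 6 h and the 33.3% called higher at 24 h lay near the 27.7% and 29.9% of all tested genes. With the second 24 h library left out, 7 were called higher and 6 lower at 24 h with a median of -0.11. Among them C1QBP rose, by 1.98 ± 0.20 at 24 h, or 1.58 without that library, and RPUSD3, a pseudouridine synthase, fell at each time, with a change of -1.12 ± 0.24 at 24 h, or -1.56 without it. Of 16 mitochondrial translation factors, 8 were called higher and 1 lower at 24 h with a median of 0.38, against 9 and 2 with 0.39 without the second 24 h library. The elongation factor TUFM rose by 1.62 ± 0.17 there, or 1.27 without it, and the initiation factor MTIF2 fell at each time, by 0.84 on the log2 scale at 24 h.

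By their median, the RNAs that the ribosome is built on and translates went the other way, with MT-RNR1 as an exception. Of the 15 rRNA and mRNA genes of mitochondrial DNA, 10, 7 and 14 were called lower at 6, 12 and 24 h and 1, 1 and 0 higher, with medians of -1.01, -0.86 and -3.08. Those called lower were 66.7%, 46.7% and 93.3% of the list, against 27.7%, 27.1% and 31.3% of all tested genes. With the second 24 h library left out, 14 were called lower and 1 higher at 24 h with a median of -2.59. MT-RNR1, the rRNA of the small subunit, was the 1 called higher at 6 and 12 h, at 1.00 ± 0.29 and 0.74 ± 0.29, and at 24 h it stood at 1104 CPM in the first library and 380 CPM in the second, against 494 to 544 CPM in normoxia. Its 24 h change did not pass with both libraries and was 1.08, called higher, without the second. MT-RNR2, the rRNA of the large subunit, changed by -1.39 ± 0.46 at 24 h, or -0.71 without that library. Of 9 genes for mitochondrial transcription and replication, 6, 5 and 4 were called higher and 0 lower. Those called higher were 66.7%, 55.6% and 44.4%, against 25.1%, 24.2% and 29.9% of all tested genes. Their median at 24 h was 0.31, or -0.04 without the second 24 h library. The transcription factor TFAM was called higher at 6 h only, at 0.97 ± 0.15. Of 10 regulators of mitochondrial biogenesis, 6, 3 and 2 were called higher and 3 were called lower at each time. Those called higher were 60%, 30% and 20%, against 25.1%, 24.2% and 29.9% of all tested genes. The 30% called lower at each time lay near the 27.7%, 27.1% and 31.3% of all tested genes. Their median at 24 h was -0.36, or -0.59 without the second 24 h library. PPARGC1A fell at each time from under 2.7 CPM, a call lost at 24 h without that library, while NRF1 and MYC were called higher at each.

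**Figure D5:**
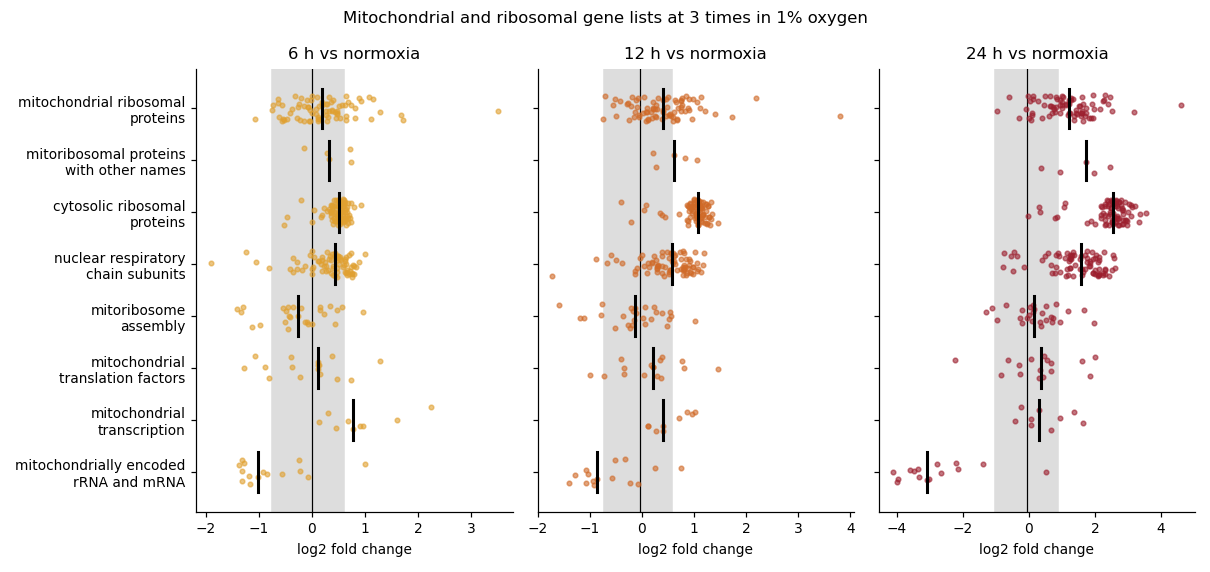
Log2 fold change against normoxia (x axis) of each tested gene (points) in 8 lists at 6 h, 12 h and 24 h; black bars are list medians, grey bands span the middle quartiles of all 19981 tested genes and the thin line is their median. The members' median moved from 0.19 to 0.40 to 1.20, that of cytosolic ribosomal proteins from 0.52 to 1.07 to 2.55, and that of mitochondrially encoded rRNA and mRNA stood at -3.08 at 24 h.

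Members have shorter transcripts than most tested genes, and shorter transcripts had higher log2 fold changes at 24 h in these libraries. The median length of the canonical transcript was 1260 bases in tested members and 2477 bases in all tested genes, and the median GC content was 48.0% and 48.6%. Across the 77 members, Spearman's rho between log2 length and log2 fold change was -0.23 at 6 h, -0.35 at 12 h and -0.49 at 24 h, where it was -0.04, -0.08 and -0.27 across 19884 tested genes with a length. These are values across genes of the same libraries, which are not independent replicates. With an offset for length and GC content in the fit, rho across the members was -0.14 at 24 h. In that fit 60 members were called higher and 3 lower at 24 h, with a median of 0.97 against 0.06 over all tested genes, of which 33.7% and 27.5% were called.

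Reads of some members could be shared with other annotated genes. In the count table, 36 members have at least 1 pseudogene named after them, 79 pseudogenes in all. MRPS21 has 8, MRPL42, MRPL57 and MRPS36 have 5 each, and MRPL35, MRPS17 and MRPS31 have 4 each. More than 30% of the exonic bases lie in a gene on the other strand for 8 members, among them MRPL9 with 30.5% and MRPS25 with 39.1%, and in another gene on the same strand for 4, among them MRPL38 with 41.1% and MRPL12 with 69.5%. Values of these members are uncertain to that extent, and the part of such reads in the changes was not tested.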

How the data were processed

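RNA from RWPE1 cells was sequenced by the study and, per the paper's methods and the submitters' processing notes, trimmed with Trimmomatic, aligned with STAR to GRCh38 and counted with featureCounts. The deposited values are raw counts per Ensembl gene, and the paper's methods give TMM, voom and limma for the authors' own differential test, while the submitters' notes also list DESeq2. The strand setting and the treatment of reads that match several places are not given in the sources used here. No table of protein sequences was used here.

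From these counts, genes were named and placed with GENCODE release 44 on GRCh38, in which 60357 of 60676 identifiers were found. The members were selected by symbol and biotype. The members, the gene lists and the rules for named genes were chosen with earlier results of these data known. filterByExpr (edgeR 4.0.16 in R 4.3.3, minimum count 10, minimum total 15) kept 19981 genes, 77 of them members. Libraries were scaled with TMM, and glmQLFit and glmQLFTest took all 11 libraries with 1 mean for each time, and p-values were adjusted by Benjamini-Hochberg across the tested genes, with a threshold of 0.05. The biological coefficient of variation was 19.6%. CPM values used TMM-scaled library sizes, and levels between genes were divided by the length of the Ensembl canonical transcript. Depth, 27496009 to 49488345 counts a library, sets the precision of single values, most of all for members with under 100 counts. The scripts were tested on simulated data.

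Alternatives were limma 3.58.1 (voom, with and without sample quality weights), DESeq2 1.42.0, median-of-ratios factors, library size alone, no filter, a stricter filter of 10 counts in every library, only the libraries of the times compared, a replicate block, an offset for length and GC content, both together, and leaving out each library. Members named are those with the 4 highest and 4 lowest called changes at each time against normoxia, those called in opposite directions, the 3 highest and 3 lowest called changes between hypoxic times, the 3 highest and 3 lowest normoxic levels, the member that failed the filter, and those listed by role. Promoter sequences are RefSeq's on GRCh38.p14. No column of per-sample values was left without a sample.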

Additional observations from a re-analysis of the deposited data

Results flagged for a closer look

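MRPL58 was singled out because its change against normoxia differed between 6 h and 24 h, with a call lower at 6 h (-0.56 ± 0.20, log2) and a call higher at 24 h (0.81 ± 0.22). The direct test of 24 h against 6 h gave 1.36 ± 0.22 with an edgeR adjusted p of 0.00059, and it was higher in 2 of 2 libraries at 24 h than in all 3 at 6 h. Without the second 24 h library the difference was 0.84. The gene was picked for this difference in the same libraries, so the direct test is no separate support. From 6 to 24 h 84.4% of the tested members were called higher. The 6 h call of MRPL58 was lost in 7 of the 11 fits that left out 1 library. Its 24 h change was 0.27 without the second 24 h library.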

How the results depend on the processing

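Leaving out each library in turn, the members called against normoxia numbered between 19 and 48 at 6 h, between 24 and 49 at 12 h and between 54 and 67 at 24 h. Between hypoxic times they numbered 0 to 20 (12 h against 6 h), 14 to 67 (24 h against 12 h) and 40 to 70 (24 h against 6 h). The member medians ranged from 0.14 to 0.23, 0.32 to 0.43, 0.66 to 1.5, 0.16 to 0.24, 0.23 to 1.12 and 0.44 to 1.24 in the same order. The fit without the second 24 h library gave the lowest values of all comparisons with 24 h. The cause was not tested. The ranges of calls merge both directions and are not set against all tested genes. They show only how calls moved with single libraries. In the fits that kept both 24 h libraries, 20.4% to 24.8% of all tested genes were called higher at 6 h. Those called lower were 23.5% to 27.6%. At 12 h 19.3% to 24.3% were called higher. From 6 to 12 h 0.125% to 1.76% were called higher and 0.181% to 3.38% lower.

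Scaling by library size alone turned the member medians to -0.13 at 6 h and -0.075 at 12 h and gave 0.16 at 24 h. Between hypoxic times it gave 0 calls and a median of 0.05 from 6 to 12 h, 9 calls and 0.25 from 12 to 24 h, and 24 calls and 0.28 from 6 to 24 h, where 0.495%, 4.24% and 6.35% of all tested genes were called higher and 2.96%, 23.1% and 36.9% lower. It also turned single members. Against normoxia at 12 h these were MRPL42 (-0.40), MRPL58 (-0.45) and MRPS27 (-0.43), and at 6 h MRPL45 (-0.0023). At 24 h they were MRPL10 (-0.57), MRPL15 (-0.91), MRPL2 (-0.96), MRPL42 (-0.24), MRPL58 (-0.21), MRPL9 (-0.90), MRPS17 (-0.27), MRPS18B (-0.69), MRPS18C (-0.90), MRPS25 (-0.98), MRPS27 (-0.81) and MRPS5 (-0.21). From 6 to 24 h they were MRPL15 (-0.050), MRPL18 (-0.089), MRPL32 (-0.12), MRPL42 (-0.11), MRPS16 (-0.10), MRPS25 (-0.050) and MRPS27 (-0.23), and from 12 to 24 h MRPL10 (-0.027). Leaving out the second 24 h library turned MRPL12 from 12 to 24 h (-0.51, or 2.61 without the first instead) and from 6 to 24 h (-0.024, or 3.08), and MRPL15 (-0.53, or 0.50), MRPL2 (-0.92, or 0.65) and MRPL41 (-0.059, or 1.71) at 24 h against normoxia.

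In the next values, the shares in parentheses are of all tested genes called higher and lower in the same fit. Sample quality weights gave 57 calls and a median of 0.32 at 12 h (35.7% and 38.9%), 15 calls from 6 to 12 h (10.6% and 11.9%), 9 from 12 to 24 h (3.42% and 2.05%) and 30 from 6 to 24 h (7.28% and 5.39%). The filter of 10 counts in every library gave medians of 0.11 at 6 h and 0.30 at 12 h and 3 calls from 6 to 12 h (2.47% and 4.51%). Fits to the libraries of the times compared gave 55 calls at 12 h (33.8% and 35.7%), 9 from 6 to 12 h (4.72% and 5.94%), 0 from 12 to 24 h, where 0 genes at all were called, and 33 from 6 to 24 h (10.9% and 11.2%). From 6 to 12 h DESeq2 gave 6 calls (3.7% and 5.9%) and median-of-ratios factors 0 (1.76% and 3.43%). The length and GC offset gave 4 calls from 6 to 12 h (3.35% and 4.03%) and 33 from 12 to 24 h (14.0% and 8.77%).

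Deviations of the libraries from the mean of their time showed no pairing by replicate number, though groups this small cannot exclude one. Same-numbered libraries correlated at -0.16 to 0.21 over 15 pairs and others at -0.27 to 0.28 over 30. With the replicate number as a block, 0 members were called from 6 to 12 h (1.02% and 1.54%), and with the block and the length and GC offset 0 from 6 to 12 h (1.89% and 2.36%) and 22 from 12 to 24 h (9.25% and 6.02%). The block moved no other count of member calls by over 1.5 times.

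The 24 h group holds 2 libraries, and members under 100 counts, such as MRPS24, have wide errors.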
